A study of Homo sapiens with 50 samples.

Results

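The genes described here are 8 cytochrome P450 genes of family 4 that hydroxylate the far end, the omega carbon, of fatty acid chains: CYP4A11, CYP4A22, CYP4F2, CYP4F3, CYP4F11, CYP4F12, CYP4F22 and CYP4V2. They were chosen by gene symbol from the deposited expression table, in which 61 transcript rows carried one of these names. The transcripts of a gene were summed in each library, which gave 8 of the 70959 genes and loci in the table and 8 of the 17875 that were tested. The cells were HepaRG, a human hepatic cell line that was bought already differentiated. Per the labels' protocols, such a culture holds hepatocyte-like cells together with biliary-like epithelial cells. RNA was sequenced from 50 libraries in 10 groups of 5. A control group and 9 exposed groups, namely mesotrione, isoxaflutole and quizalofop-p-ethyl each at 0.1 uM, 10 uM and 1 mM, were kept from day 8 to day 14 in the same medium. That medium was Williams' E with GlutaMAX, 2% fetal bovine serum and 1% DMSO, so that the controls carried the serum and the DMSO too. The 3 agents are active ingredients of herbicides. Isoxaflutole and mesotrione inhibit a plant enzyme of tyrosine breakdown, and quizalofop-p-ethyl is an ester that inhibits plant acetyl-CoA carboxylase. One line from 1 supplier stands for the liver here, and the labels do not say whether the libraries of a group were separate cultures, so the p-values below measure the spread between libraries, which may be technical.

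Omega-hydroxylation is a side route of fatty acid breakdown in the liver. A CYP4 enzyme in the endoplasmic reticulum, fed with electrons by P450 reductase, puts a hydroxyl group on the terminal carbon, alcohol and aldehyde dehydrogenases oxidise it to a second carboxyl group, and the dicarboxylic acid is shortened in peroxisomes. The same chemistry ends the action of leukotrienes, starts the breakdown of vitamin E and vitamin K side chains, and in skin makes the ultra-long omega-hydroxy fatty acids of the water barrier.

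Values are FPKM, fragments scaled by transcript length and by the size of the library, so levels may be compared between genes. The summed FPKM of the 49 libraries used lay between 541874 and 801657, and their depth, estimated from the deposited values, between 7400000 and 35500000 fragments. One library of quizalofop-p-ethyl at 10 uM was left out. It had a summed FPKM of 234909, about 3900000 estimated fragments and 5375 genes at 1 FPKM or more, against 13062 to 16335 genes in the others, and its CYP4 levels lay between 0 and 8.81 FPKM. Of 22 hepatocyte markers 19 passed the filter on low values, and the summed level of all 22 in the control was 22926 to 27865 FPKM. Of 10 biliary markers 7 passed, with EPCAM under 0.1 FPKM in the control. Of 12 stellate and mesenchymal markers 7 passed, of 6 leukocyte markers 3 and of 8 keratinocyte markers 2, with COL1A2, PDGFRA, PTPRC, CD163, CD3E, KRT1, IVL, LOR and TP63 under 0.1 FPKM in the control.

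In the control group CYP4F11 had the highest level of the 8 genes, 24.5 ± 8.75 FPKM (SD, n = 5). CYP4F3 followed with 16.3 ± 3.91, then CYP4F22 with 10.1 ± 2.90, CYP4V2 with 9.79 ± 5.35, CYP4F2 with 6.52 ± 1.63, CYP4A11 with 5.84 ± 2.24, CYP4F12 with 4.72 ± 0.983 and CYP4A22 with 0.971 ± 0.385. Neighbours in this order overlapped in their control libraries at each step but the last: CYP4A22 did not reach 1.4 FPKM in any control library (highest 1.37), while CYP4F12 did not fall under 4.001 FPKM. These are means over named transcripts only. CYP4V2 had 0.280 FPKM in control replicate 4, and by its median of 12.1 FPKM it stood above CYP4F22, with a median of 8.44. Among all tested genes CYP4F11 stood at the 89.5th percentile of control levels and CYP4A22 at the 22.1st. In the same list of family members fixed for reference, CYP4B1 had 1.43 ± 0.553 FPKM in the control, and CYP4X1, CYP4Z1 and CYP4F8 did not pass the filter, with control means of 0.386, 0.205 and 0.00398 FPKM.

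**Figure D1:**
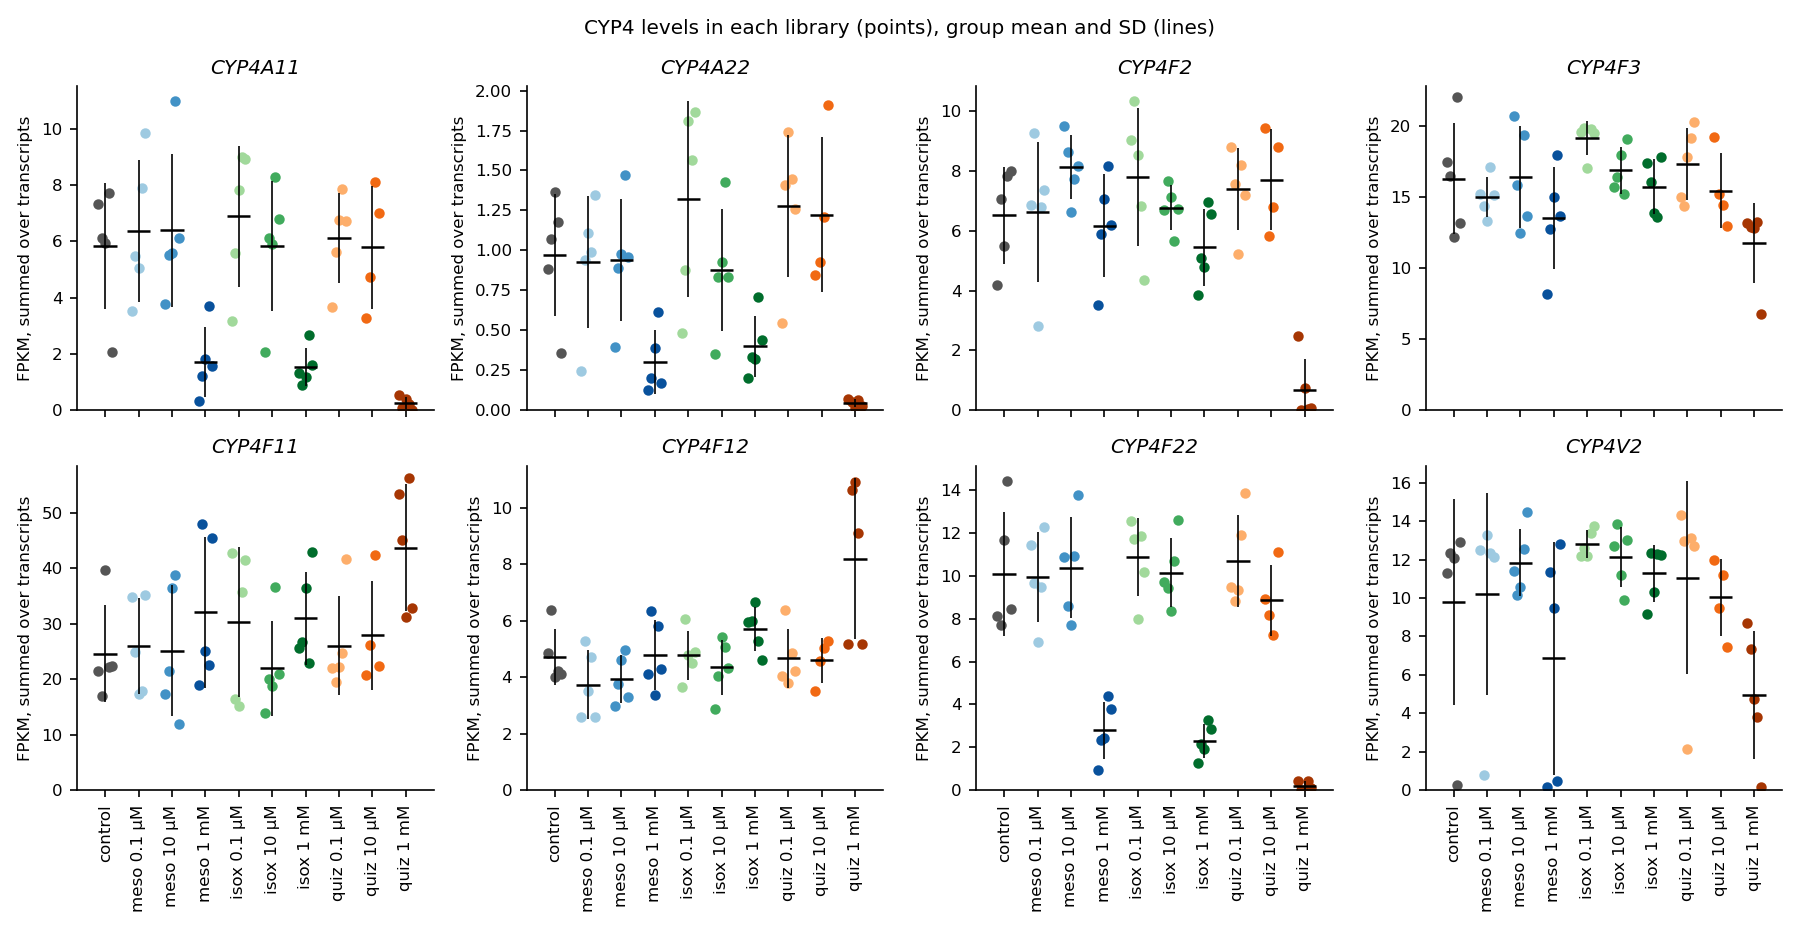
Level of each of the 8 CYP4 genes in FPKM (vertical axes, each with its own scale) in the 49 libraries of the 10 groups (horizontal axes). Points are libraries, horizontal lines group means and vertical lines the SD; meso, isox and quiz stand for mesotrione, isoxaflutole and quizalofop-p-ethyl. The 1 mM groups stand low for CYP4A11, CYP4A22 and CYP4F22, CYP4F2 is low with quizalofop-p-ethyl only, and CYP4V2 has single libraries near 0 in several groups.

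At 0.1 uM and 10 uM no CYP4 gene passed the test against the control. Across 48 tests, 8 genes in 6 groups, limma called 0 at an adjusted p under 0.05 and none had an unadjusted p under 0.05. The log2 fold changes lay between -0.29 (CYP4F12, mesotrione 0.1 uM) and 0.74 (CYP4V2, isoxaflutole 0.1 uM), and the 95% intervals of single genes reached from -1.10 to 1.97, the widest being those of CYP4V2. Background at these concentrations was 0% of tested genes called in 5 of the 6 comparisons and 0.00559% with quizalofop-p-ethyl at 10 uM. Group means stayed between 5.79 and 6.90 FPKM for CYP4A11, between 6.63 and 8.14 for CYP4F2, between 15.01 and 19.1 for CYP4F3, between 21.98 and 30.3 for CYP4F11 and between 8.87 and 10.9 for CYP4F22. Fold changes here and below are differences of log2(FPKM + 1), a scale that understates the change of low genes.

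At 1 mM 2, 2 and 7 of the 8 genes passed the test with mesotrione, isoxaflutole and quizalofop-p-ethyl. Mesotrione lowered 2, CYP4A11 and CYP4F22, against a background of 1.28% of all tested genes called in either direction (1.02% lower and 0.252% higher). Isoxaflutole also lowered CYP4A11 and CYP4F22 and moved no other member past the threshold, against 3.58% (1.82% lower and 1.76% higher). Quizalofop-p-ethyl changed 7 of the 8, lowering CYP4A11, CYP4A22, CYP4F2, CYP4F3 and CYP4F22 and raising CYP4F11 and CYP4F12, against 38.8% (23.4% lower and 15.4% higher). With another scaling of the libraries, by the median ratio, the quizalofop-p-ethyl calls over all genes turned from 2750 higher and 4188 lower to 3659 higher and 3539 lower. The median log2 fold change of the 8 genes was -0.43 with mesotrione, -0.12 with isoxaflutole and -0.84 with quizalofop-p-ethyl, beside -0.01, 0.00 and -0.09 over all tested genes. The 3 comparisons share their control libraries.

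**Figure D2:**
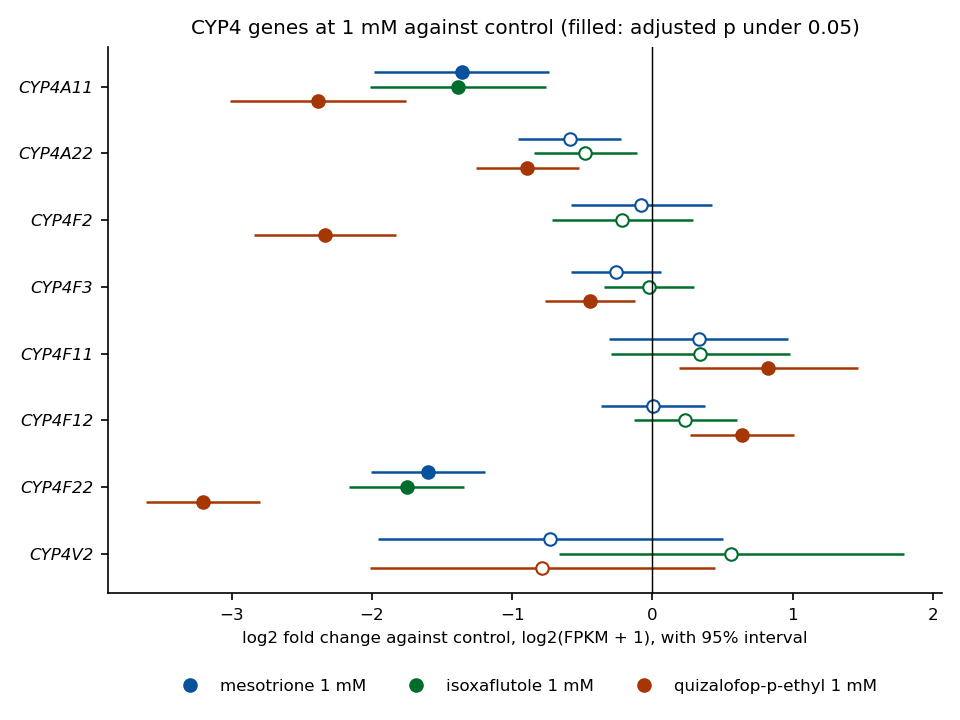
Log2 fold change of each CYP4 gene at 1 mM against the control, on the log2(FPKM + 1) scale, with 95% intervals from limma and filled points where the adjusted p was under 0.05. CYP4F22 lies farthest below 0 with each of the 3 agents, and CYP4F11 and CYP4F12 lie above 0 with quizalofop-p-ethyl.

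CYP4A11 hydroxylates medium-chain fatty acids such as lauric acid, and arachidonic acid, and is known as a target of the fatty acid receptor PPARalpha. CYP4A22 is its close neighbour on chromosome 1, with a less well known enzyme activity. In GRCh38 CYP4A11 lies at chr1:46929177-46941484 on the minus strand and CYP4A22 at chr1:47137435-47149741 on the plus strand. Their coding sequences share 1520 of 1560 aligned bases (97.4%), and 523 of the 2456 windows of 75 bases in the leading CYP4A11 transcript (21.3%), the read length, occur unchanged in CYP4A22. Reads from those windows cannot be told apart by sequence, so the split between the pair of genes is uncertain. The first 150 coding bases, from GENCODE 29 on GRCh38 and written 5′ to 3′ with the 9 differing bases in capitals, show how alike the pair is:
CYP4A11: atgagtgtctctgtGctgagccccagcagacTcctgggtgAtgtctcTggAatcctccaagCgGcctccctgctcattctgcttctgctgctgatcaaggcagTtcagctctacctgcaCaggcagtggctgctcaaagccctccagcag
CYP4A22: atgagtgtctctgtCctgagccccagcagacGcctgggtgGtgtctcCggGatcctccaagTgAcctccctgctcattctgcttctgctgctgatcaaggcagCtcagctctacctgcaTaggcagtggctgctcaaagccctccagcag

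CYP4A11 had 7.33, 6.13, 5.96, 7.72 and 2.06 FPKM in control replicates 1 to 5 (replicate numbers only name libraries). It had 0.323, 1.199, 1.82, 3.70 and 1.57 FPKM with mesotrione at 1 mM and 1.33, 0.881, 1.17, 2.67 and 1.59 with isoxaflutole at 1 mM. With quizalofop-p-ethyl at 1 mM it had 0.525, 0.0855, 0.404, 0.219 and, in replicate 5, a listed 0. The low control replicate 5 lay within the range of the mesotrione and isoxaflutole libraries, while all quizalofop-p-ethyl libraries lay below every control library. The sample numbers in the labels form 5 runs with 1 library of every group in each. In 5 of 5 runs CYP4A11 was lower than in the control of the same run with each agent. Control replicate 5 stood in the same run as replicate 1 of every other group. In that run CYP4A11 was the lowest of the used libraries of its group, except with isoxaflutole and quizalofop-p-ethyl at 1 mM. It had 3.52 FPKM there with mesotrione at 0.1 uM and 2.07 with isoxaflutole at 10 uM. CYP4A11 fell with mesotrione by 1.36 on the log2 scale (SE 0.31, limma adjusted p = 0.0117), with isoxaflutole by 1.39 (SE 0.31, limma adjusted p = 0.00475) and with quizalofop-p-ethyl by 2.39 (SE 0.31, limma adjusted p = 1.87e-08). As ratios of group means these were 3.39-fold, 3.82-fold and 23.7-fold lower levels. The mesotrione call was lost without mesotrione 1 mM replicate 1 (limma adjusted p = 0.0718) and without control replicate 4 (limma adjusted p = 0.0514). It was also lost when only the 2 groups were fitted (limma adjusted p = 0.145). With the shallow library kept in the fit both the mesotrione call (limma adjusted p = 0.219) and the isoxaflutole call (limma adjusted p = 0.104) were lost.

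CYP4A22 moved in the same directions at a lower level. Its control libraries had 0.880, 1.07, 1.37, 1.18 and 0.359 FPKM. At 1 mM it had 0.125, 0.200, 0.387, 0.615 and 0.171 FPKM with mesotrione, 0.201, 0.331, 0.321, 0.706 and 0.438 with isoxaflutole, and 0.0694, 0.0519, 0.0114, 0.0608 and 0.0238 with quizalofop-p-ethyl. The quizalofop-p-ethyl libraries lay below all controls, and the ranges of the other two groups included the level of control replicate 5. The quizalofop-p-ethyl difference passed the test (log2 fold change -0.89, SE 0.18, limma adjusted p = 8.95e-05). The ratio of group means was 22.3-fold. With mesotrione the log2 fold change was -0.59 (limma adjusted p = 0.109) and with isoxaflutole -0.48 (limma adjusted p = 0.168), and neither passed. In 5 of 5 runs of sample numbers CYP4A22, like CYP4A11, was lower than in the control of the same run with each of the 3 agents. With these runs as a block in the fit both differences passed (limma adjusted p = 0.00139 with mesotrione and 0.00739 with isoxaflutole). The labels do not say that a run is a batch. In the run of control replicate 5, CYP4A22 was the lowest of the used libraries of its group in every group but quizalofop-p-ethyl at 1 mM. Without control replicate 5 the mesotrione difference passed (log2 fold change -0.72, limma adjusted p = 0.0464). The leading CYP4A22 transcript held an estimated 23 to 64 fragments in control libraries and 1 to 4 with quizalofop-p-ethyl, so the latter level has a wide counting error. CYP4A22-AS1 lies over CYP4A22 on the opposite strand with a control mean of 0.113 FPKM, and with the strand setting of the counting not known, reads of this pair may not be told apart.

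CYP4F2 and CYP4F3 hydroxylate leukotriene B4 and arachidonic acid, and CYP4F2 is also the enzyme that starts vitamin E breakdown and removes vitamin K. The CYP4F genes form a cluster on chromosome 19, where CYP4F2 lies at chr19:15878023-15898120 on the minus strand and CYP4F3 at chr19:15640897-15662825 on the plus strand. Their coding sequences are 94.7% identical, and 213 of the 2333 windows of 75 bases in the leading CYP4F2 transcript (9.13%) occur in CYP4F3. CYP4F2 had 4.20, 7.08, 5.48, 7.82 and 8.01 FPKM in the control. It had 3.51, 5.90, 7.05, 8.17 and 6.18 FPKM with mesotrione at 1 mM, 3.85, 5.09, 4.79, 6.95 and 6.57 with isoxaflutole, and 2.47, 0 (listed), 0.736, 0.0397 and 0.0578 with quizalofop-p-ethyl. The mesotrione and isoxaflutole libraries overlapped the control range, and the quizalofop-p-ethyl libraries all lay below it. CYP4F2 fell with quizalofop-p-ethyl by 2.33 on the log2 scale (SE 0.25, limma adjusted p = 1.54e-10). It had log2 fold changes of -0.08 with mesotrione (limma adjusted p = 0.967) and -0.21 with isoxaflutole (limma adjusted p = 0.769).

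CYP4F3 is spliced in 2 known ways. Transcripts with its exon 3 are known from liver and kidney, and transcripts with exon 4 in the same place are known from neutrophils. In GENCODE 29 exon 3 lies at chr19:15643907-15644051 and exon 4 at chr19:15645719-15645863, both on the plus strand. The 2 exons have the same length, 145 bases, and share 70 bases (48.3%) when laid side by side. They are printed 5′ to 3′ with the differing bases in capitals, because they decide which form of the enzyme is made:
CYP4F3 exon 3: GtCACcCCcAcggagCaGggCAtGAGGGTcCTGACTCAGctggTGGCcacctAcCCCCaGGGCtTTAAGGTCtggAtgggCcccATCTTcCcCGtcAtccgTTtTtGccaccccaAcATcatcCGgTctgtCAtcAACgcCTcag
CYP4F3 exon 4: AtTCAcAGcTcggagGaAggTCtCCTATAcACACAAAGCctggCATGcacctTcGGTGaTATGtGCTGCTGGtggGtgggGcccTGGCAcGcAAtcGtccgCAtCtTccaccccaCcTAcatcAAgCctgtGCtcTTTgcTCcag
Over the 49 libraries the 4 transcripts with exon 3 held 97.5% of CYP4F3 FPKM (lowest library 88.3%) and the 2 transcripts with exon 4 held 1.03% (highest library 8.74%). With quizalofop-p-ethyl at 1 mM these shares were 94.9% ± 3.17 and 1.31% ± 2.35 (SD, n = 5), against 96.6% ± 4.65 and 1.95% ± 3.21 in the control.

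The CYP4F3 gene as a whole had 17.5, 16.5, 12.2, 22.02 and 13.2 FPKM in the control and 13.2, 12.8, 12.8, 13.2 and 6.75 with quizalofop-p-ethyl at 1 mM. Quizalofop-p-ethyl replicate 5 was the low one, and the other 4 libraries lay in the lower part of the control range. The log2 fold change was -0.44 (SE 0.16, limma adjusted p = 0.0240), a 1.38-fold lower mean. The call was lost without that replicate (log2 fold change -0.27, limma adjusted p = 0.168), without control replicate 1 (limma adjusted p = 0.0545) and without control replicate 4 (limma adjusted p = 0.109), and also under median-ratio scaling (limma adjusted p = 0.0967), without the filter on low values (0.0567), with the 2 groups alone (0.112) and with all 50 libraries (0.254). Mesotrione libraries had 8.16, 12.7, 14.98, 17.96 and 13.7 FPKM and isoxaflutole libraries 17.4, 16.0, 13.8, 13.5 and 17.8, with limma adjusted p of 0.619 and 0.974. Transcripts from the downstream start held 43.8% ± 9.83 of CYP4F3 FPKM in the control and 30.7% ± 20.5 with quizalofop-p-ethyl. The leading transcript, which begins at that start, had a log2 fold change of -1.03 in a fit over single transcripts (limma adjusted p = 0.0766).

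CYP4F11 and CYP4F12 were the 2 genes that rose. CYP4F11 hydroxylates long-chain 3-hydroxy fatty acids and vitamin K, and CYP4F12 acts on arachidonic acid and on some antihistamine drugs. CYP4F11 lies at chr19:15912367-15934867 on the minus strand, 14247 bases from CYP4F2, with no 75-base window shared with another gene. CYP4F12 lies at chr19:15672757-15697174 on the plus strand, 9932 bases from CYP4F3. CYP4F11 had 21.5, 16.9, 39.7, 22.1 and 22.4 FPKM in the control and 53.3, 45.1, 31.2, 56.2 and 32.8 with quizalofop-p-ethyl at 1 mM. The high control replicate 3 lay above 2 of the quizalofop-p-ethyl libraries, and the other 4 controls lay below all of them. The log2 fold change was 0.83 (SE 0.32, limma adjusted p = 0.0341), a 1.78-fold higher mean. This call was lost in 7 of the 10 fits that left out 1 library (limma adjusted p 0.0130 to 0.0949), without the filter (0.0785) and with all 50 libraries (0.0766). Mesotrione libraries had 18.9, 48.1, 25.1, 22.6 and 45.5 FPKM and isoxaflutole libraries 25.6, 26.7, 36.5, 23.0 and 43.0, and neither group passed the test (limma adjusted p 0.821 and 0.691).

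Part of the CYP4F11 signal sits in an assembled transcript without a gene name that spans chr19:15912812-15934886, is 4946 bases long, and reached 42.3 FPKM in 1 library (mean 12.7). When assembled transcripts of this kind, with at least 90% of their span inside 1 named gene, were added to their genes, CYP4F11 had 37.7 ± 4.57 FPKM in the control (33.2 to 44.6) and 67.7 ± 20.1 with quizalofop-p-ethyl (51.2 to 102), and the ranges no longer overlapped. The log2 fold change was then 0.79 (SE 0.14, limma adjusted p = 1.12e-05). This way of summing was chosen after the data had been seen. With it 8316 of 18252 tested genes were called for quizalofop-p-ethyl at 1 mM against the control. CYP4F12 had 4.87, 6.37, 4.001, 4.23 and 4.13 FPKM in the control and 5.17, 10.6, 10.9, 9.11 and 5.16 with quizalofop-p-ethyl. Replicates 2, 3 and 4 of quizalofop-p-ethyl lay above every control, while replicates 1 and 5 lay within the control range. CYP4F12 rose by 0.64 on the log2 scale (SE 0.18, limma adjusted p = 0.00426), a 1.74-fold higher mean, and lost the call with all 50 libraries (0.0597). With mesotrione it had 4.78 ± 1.24 FPKM and with isoxaflutole 5.70 ± 0.781 (SD, n = 5), not called (limma adjusted p 0.999 and 0.609).

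CYP4F22 had the largest log2 fold change of the 8 genes with each of the 3 agents at 1 mM. It is the skin enzyme that omega-hydroxylates ultra-long-chain fatty acids for acylceramides, and its loss causes a congenital ichthyosis. It lies at chr19:15508493-15552317 on the plus strand, shares no 75-base window with another gene, and its coding sequence is 70.7% to 72.1% identical to those of the other CYP4F genes described here. The control libraries had 8.14, 7.70, 11.7, 14.4 and 8.44 FPKM. With mesotrione at 1 mM they had 0.940, 2.35, 2.44, 4.38 and 3.80, with isoxaflutole 1.27, 2.13, 1.90, 3.28 and 2.83, and with quizalofop-p-ethyl 0.435, 0 (listed), 0 (listed), 0.422 and 0.0854. No library of these 3 groups reached the lowest control. CYP4F22 fell by 1.60 on the log2 scale with mesotrione (SE 0.20, limma adjusted p = 9.82e-07), by 1.75 with isoxaflutole (SE 0.20, limma adjusted p = 4.50e-08) and by 3.20 with quizalofop-p-ethyl (SE 0.20, limma adjusted p = 2.31e-17). As ratios of group means these were 3.62-fold and 4.41-fold for mesotrione and isoxaflutole. The leading transcript, with 91.2% of CYP4F22 FPKM, fell by 1.79, 1.90 and 3.24 in the fit over single transcripts. It held an estimated 303 to 574 fragments in control libraries and 0 to 23 with quizalofop-p-ethyl. With a pseudocount of 0.1 FPKM the quizalofop-p-ethyl log2 fold change was -5.49 for CYP4F22, -4.26 for CYP4A11, -4.23 for CYP4F2 and -2.82 for CYP4A22.

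CYP4V2, which hydroxylates fatty acids in the eye and other tissues and is mutated in Bietti crystalline dystrophy, had a different pattern. It lies at chr4:186191520-186213456 on the plus strand and overlaps KLKB1, the plasma prekallikrein gene, with which its leading transcript shares 128 of 1968 windows of 75 bases (6.50%). Its control libraries had 11.3, 12.3, 12.1, 0.280 and 12.9 FPKM, and its mesotrione 1 mM libraries 0.160, 11.3, 9.46, 0.492 and 12.8. Isoxaflutole libraries had 9.15, 12.4, 10.3, 12.3 and 12.3, and quizalofop-p-ethyl libraries 8.71, 7.36, 4.72, 3.78 and 0.136. Control replicate 4 and mesotrione replicates 1 and 4 stood near 0 apart from their groups. The other 4 control libraries, at 11.3 to 12.9 FPKM, overlapped the mesotrione and isoxaflutole libraries too, while the quizalofop-p-ethyl libraries lay below those 4 and above control replicate 4 in 4 of 5 cases. The quizalofop-p-ethyl difference did not pass the test (log2 fold change -0.79, 95% interval -2.02 to 0.45, limma adjusted p = 0.331). Without control replicate 4 it did (log2 fold change -1.46, limma adjusted p = 0.0416), and without quizalofop-p-ethyl replicate 5 the log2 fold change was -0.27 (limma adjusted p = 0.780).

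In the libraries with little named CYP4V2, an assembled transcript without a gene name had a high level. It spans chr4:186191448-186213452, in 10 exons and 5167 bases. It had 8.27 FPKM in control replicate 4, 6.02 and 7.36 in mesotrione 1 mM replicates 1 and 4, 7.34 in mesotrione 0.1 uM replicate 2 (named CYP4V2 0.800) and 4.67 in quizalofop-p-ethyl 0.1 uM replicate 3 (named CYP4V2 2.16). In quizalofop-p-ethyl 1 mM replicate 5 it had 2.06 FPKM. With it and like transcripts added, CYP4V2 had 12.3 ± 2.45 FPKM in the control (8.55 to 14.7), 9.78 ± 2.72 with mesotrione, 11.7 ± 1.43 with isoxaflutole and 5.97 ± 2.44 with quizalofop-p-ethyl at 1 mM (2.19 to 8.71). Quizalofop-p-ethyl then lowered CYP4V2 (log2 fold change -1.01, SE 0.19, limma adjusted p = 2.46e-05). This sum was chosen after the libraries near 0 had been seen, and the cause of the split between named and unnamed transcripts was not tested.

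**Figure D3:**
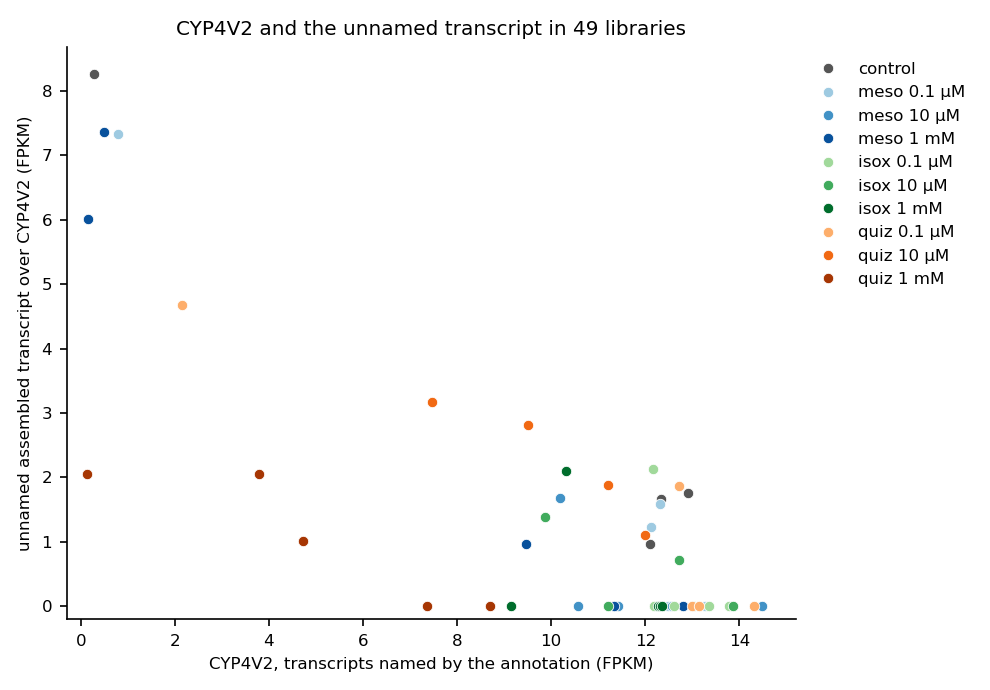
FPKM of the named CYP4V2 transcripts (horizontal axis) against FPKM of the assembled transcript without a gene name over the same gene (vertical axis), 1 point per library. The libraries with under 3 FPKM of named CYP4V2 have 2.06 to 8.27 FPKM of the assembled transcript, and the others have 0 to 3.17.

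The agents were also compared with each other at the same concentration. At 0.1 uM and 10 uM limma called none of the 8 genes in the 6 comparisons between agents, and 1 of the 48 tests had an unadjusted p under 0.05. The background of these 6 comparisons was 0% to 0.0112% of tested genes called. At 1 mM isoxaflutole and mesotrione differed in none of the 8 genes, against a background of 0.33% of tested genes called. The 95% interval of their difference was -0.65 to 0.60 for CYP4A11 and -0.56 to 0.25 for CYP4F22, and CYP4V2 had the only unadjusted p under 0.05 (log2 difference 1.29, limma adjusted p = 0.661). Both agents are inhibitors of the same plant enzyme, and these intervals do not show that they act alike.

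Quizalofop-p-ethyl at 1 mM gave lower levels than isoxaflutole at 1 mM for 4 genes, against a background of 35.7% of tested genes called: CYP4A11 with a log2 difference of -0.999 (limma adjusted p = 0.00913), CYP4F2 with -2.12 (limma adjusted p = 2.11e-09), CYP4F22 with -1.45 (limma adjusted p = 1.00e-07) and CYP4F3 with -0.42 (limma adjusted p = 0.0366). Against mesotrione at 1 mM the background was 36.1%. There CYP4A11 (-1.03, limma adjusted p = 0.00738), CYP4F2 (-2.26, limma adjusted p = 4.39e-10) and CYP4F22 (-1.61, limma adjusted p = 1.05e-08) were lower and CYP4F12 (0.64, limma adjusted p = 0.00488) was higher. CYP4F12 did not pass the test against isoxaflutole (0.40, limma adjusted p = 0.0825), nor did CYP4A22 (-0.41, limma adjusted p = 0.0739). With contained assembled transcripts added, CYP4F11 was higher and CYP4V2 lower with quizalofop-p-ethyl than with either other agent. In that setting, chosen after the data had been seen, 7773 and 7848 of 18252 tested genes were called against isoxaflutole and mesotrione. For CYP4F11 the limma adjusted p was 0.000396 against isoxaflutole and 0.00641 against mesotrione, and for CYP4V2 it was 6.39e-05 and 0.00332.

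Within each agent the 1 mM group was set against the 10 uM group, which sets no library against the control. With mesotrione CYP4A11 fell by 1.49 (limma adjusted p = 0.00423) and CYP4F22 fell by 1.65 (limma adjusted p = 4.04e-07), with 1.46% of tested genes called. With isoxaflutole CYP4A11 fell by 1.38 (limma adjusted p = 0.00415) and CYP4F22 fell by 1.79 (limma adjusted p = 2.77e-08), with 4.08% called. With quizalofop-p-ethyl the log2 differences were -2.40 for CYP4A11, -1.07 for CYP4A22, -2.56 for CYP4F2 and -3.06 for CYP4F22, and CYP4F12 rose by 0.67 (limma adjusted p = 0.00509), with 37.4% called. CYP4F11 (0.65, limma adjusted p = 0.132), CYP4F3 (-0.39, limma adjusted p = 0.0682) and CYP4V2 (-1.19, limma adjusted p = 0.155) did not pass there.

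The summed level of the 8 genes, over named transcripts only, moved less than its make-up. It was 78.7 ± 8.25 FPKM in the control, 68.1 ± 21.5 with mesotrione, 73.3 ± 9.64 with isoxaflutole and 69.8 ± 16.7 with quizalofop-p-ethyl at 1 mM (SD, n = 5 each). CYP4F11 held 30.7% of the sum in the control, 46.5% with mesotrione, 41.7% with isoxaflutole and 62.9% with quizalofop-p-ethyl. CYP4F22 held 12.7% in the control and 0.243% with quizalofop-p-ethyl, CYP4A11 went from 7.39% to 0.333%, and CYP4F12 from 6.09% to 12.1%. These shares were not tested. The sum and the shares leave out unnamed assembled transcripts. At the CYP4F11 locus these had a mean of 14.1 FPKM over the 49 libraries, beside 28.9 for the named ones.

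**Figure D4:**
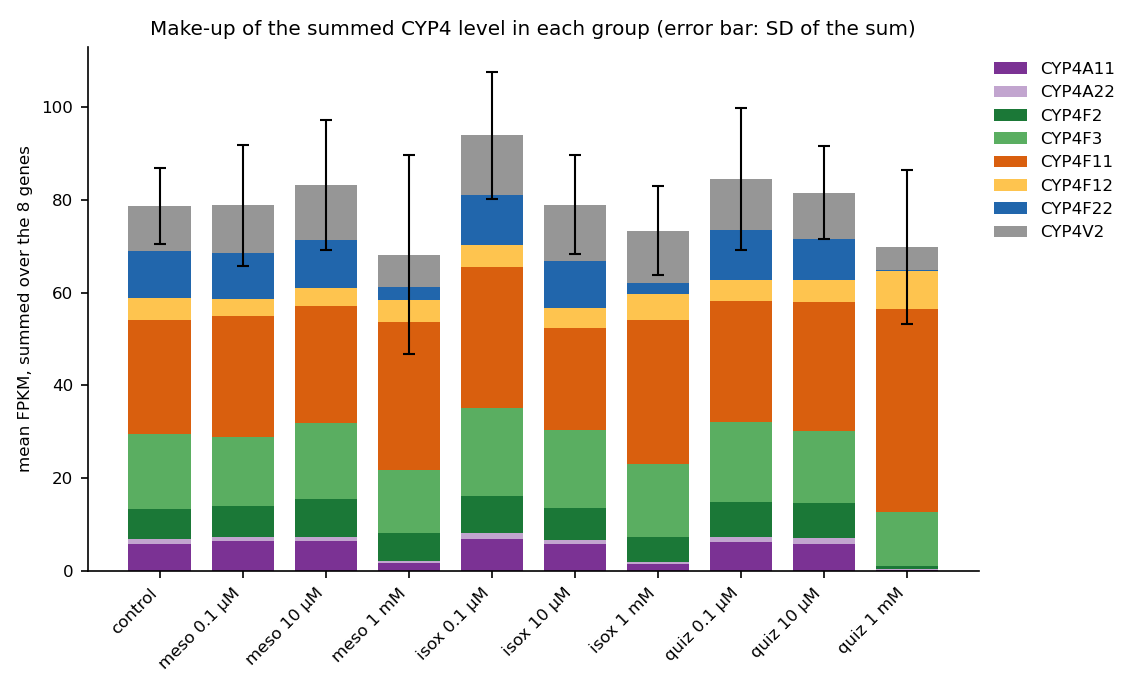
Summed FPKM of the named transcripts of the 8 CYP4 genes (vertical axis) in the 10 groups, as stacked bars of group means with 1 colour per gene and the SD of the sum as error bar. The control and the 1 mM groups reach 68.1 to 78.7 FPKM, while the CYP4F11 part is largest with quizalofop-p-ethyl at 1 mM.

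Markers of several cell types were lower with quizalofop-p-ethyl at 1 mM, the group in which the means of CYP4F11 and CYP4F12 were higher. CYP4F12 in replicates 1 and 5 of that group, and CYP4F11 in replicates 3 and 5, did not exceed the highest control. Of 19 tested hepatocyte markers, 1 fell with mesotrione, 4 with isoxaflutole and 19 with quizalofop-p-ethyl at 1 mM. All marker counts here stand beside 1.28%, 3.58% and 38.8% of all tested genes called with the 3 agents in that order. The leukocyte and keratinocyte lists, with 3 and 2 tested markers, are too short to be set against these shares. The summed level of all 22 hepatocyte markers was 14562 to 23642 FPKM with mesotrione, which overlapped the control, 12323 to 21660 with isoxaflutole, and 6263, 1675, 2865, 2438 and 254 in quizalofop-p-ethyl replicates 1 to 5. Replicate 1 had the highest sum and the highest CYP4F2 of that group (2.47 FPKM), and replicate 5 had the lowest sum, the lowest CYP4F3 and the listed 0 of CYP4A11. CYP4V2 and CYP4F12 were also lowest in replicate 5. The other members were not: CYP4F2 was lowest in replicate 2 (listed 0) and CYP4F22 in replicates 2 and 3 (listed 0). CYP4A22 and CYP4F11 were lowest in replicate 3 (0.0114 and 31.2 FPKM). Like the hepatocyte sum, the sums below cover every listed marker, tested or not. The biliary sum lay below its control range of 664 to 757 FPKM with all 3 agents, at 454 to 594 with mesotrione (2 of 7 tested markers fell), 530 to 642 with isoxaflutole (1 rose and 2 fell) and 88.9 to 193 with quizalofop-p-ethyl (5 fell). The stellate and mesenchymal sum was 245 to 743 FPKM in the control, 185 to 681 with mesotrione (2 of 7 fell), 174 to 695 with isoxaflutole (3 fell) and 48.5 to 236 with quizalofop-p-ethyl (5 fell and 1 rose). Leukocyte markers summed to 8.80 to 36.3 FPKM in the control, 7.89 to 21.6 with mesotrione, 11.8 to 34.7 with isoxaflutole and 2.73 to 15.6 with quizalofop-p-ethyl, with 1, 0 and 2 of 3 lower. Keratinocyte markers summed to 9.80 to 15.3 FPKM in the control, 7.11 to 9.55 with mesotrione, 6.43 to 11.9 with isoxaflutole and 4.82 to 8.36 with quizalofop-p-ethyl, with 1 of 2 lower with each agent. In bulk RNA, fewer cells of a type and less RNA per cell cannot be told apart, and the part of either in the CYP4 differences was not tested.

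The genes around omega-hydroxylation were followed by lists, which were drawn up with earlier results of these data known. Their counts stand beside 1.28%, 3.58% and 38.8% of all tested genes called with mesotrione, isoxaflutole and quizalofop-p-ethyl at 1 mM. The alcohol and aldehyde dehydrogenases that oxidise the hydroxylated acid moved downward where they were called. Of 12 tested, 1 was lower with mesotrione, 3 with isoxaflutole and 10 with quizalofop-p-ethyl, and none was higher. The list's median log2 fold change was -0.04, -0.13 and -1.90, beside -0.01, 0.00 and -0.09 over all genes. ADH4, which oxidises long-chain omega-hydroxy acids, fell with all 3 agents by 1.13, 2.40 and 3.04 (limma adjusted p = 0.0108, 5.42e-09 and 1.61e-13). ADH1A, an ethanol-oxidising enzyme, fell by 1.21 with isoxaflutole and 4.20 with quizalofop-p-ethyl.

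Among 13 tested genes for the peroxisomal handling of dicarboxylic acids, none was called with mesotrione, 3 were higher with isoxaflutole, and 1 was higher and 9 lower with quizalofop-p-ethyl (medians -0.01, 0.30 and -0.73). SLC27A2, a very long-chain acyl-CoA synthetase, rose by 0.66 with isoxaflutole and fell by 1.53 with quizalofop-p-ethyl, and ACAA1, a peroxisomal thiolase, rose by 0.52 and fell by 0.86. EHHADH, the bifunctional enzyme of peroxisomal beta-oxidation, fell by 1.94 with quizalofop-p-ethyl. Of 5 electron partners of P450 enzymes none was called with mesotrione or isoxaflutole. With quizalofop-p-ethyl POR, the P450 reductase, rose by 2.34 and CYB5A, cytochrome b5, fell by 1.99.

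Other targets of PPARalpha moved in both directions with quizalofop-p-ethyl. Of 16 tested, none was called with mesotrione, 7 rose and none fell with isoxaflutole, and 7 rose and 7 fell with quizalofop-p-ethyl (medians -0.02, 0.39 and -0.10). ANGPTL4, a lipase inhibitor, rose by 2.91 with isoxaflutole and 4.85 with quizalofop-p-ethyl, PLIN2, a lipid droplet coat protein, by 1.24 and 4.28, and PDK4, a kinase that shuts down pyruvate oxidation, by 1.10 and 3.16. PPARA itself had 3.49 ± 2.35 FPKM in the control and log2 fold changes of 0.19, 0.27 and 0.43, none called (limma adjusted p = 0.914, 0.757 and 0.269). Of 14 receptors and regulators none was called with mesotrione or isoxaflutole. With quizalofop-p-ethyl 2 rose and 4 fell, which is 42.9% of the list and near the 38.8% of all tested genes. Among them were PPARG (1.43) and HNF4A (-1.97), a master regulator of hepatocyte genes.

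Of 12 tested eicosanoid and vitamin K or E partners, 1 fell with mesotrione, 1 rose and 1 fell with isoxaflutole, and 1 rose and 9 fell with quizalofop-p-ethyl. CYP2C8, which epoxidises arachidonic acid, fell with all 3 agents, by 1.29, 0.78 and 4.13. TTPA, the vitamin E transfer protein, fell by 1.62 with quizalofop-p-ethyl. Of 6 tested acylceramide partners of CYP4F22, none was called with mesotrione, 2 rose with isoxaflutole, and 4 rose and 1 fell with quizalofop-p-ethyl. SLC27A4, an acyl-CoA synthetase that acts after CYP4F22, rose by 0.38 with isoxaflutole and 0.89 with quizalofop-p-ethyl, and UGCG, which adds glucose to ceramide, rose by 1.29 with quizalofop-p-ethyl. ABCA12, the lipid transporter of skin, fell by 1.23. Of 4 other CYP4 genes 1 was tested, CYP4B1, which fell by 0.90 with quizalofop-p-ethyl (limma adjusted p = 0.00271).

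Promoters of 5 of the 8 genes were listed in RefSeq for GRCh38.p14, in 6 windows of 300 bases. CYP4A11, CYP4A22 and CYP4F12 had no listed window and were not searched. The letters AGGTCA, the core letters of nuclear receptor elements such as those of PPARalpha, searched on both strands, occurred 1 time in the CYP4V2 window and in none of the other 5. The same letters were in 4857 of 35116 promoter windows (13.8%). Only exact matches were counted, so receptor elements that vary from these letters or lie outside the windows could not be found.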

How the data were processed

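Total RNA, cleared of ribosomal RNA, went into stranded libraries that were prepared in random order and read as 75-base pairs in 3 sequencing pools, per the labels' protocols. The pool of each library and the strand setting of the counting are not given in the sources used here. HISAT, HISAT2, StringTie and the GRCh38 build are named, without versions, per the submitters' processing notes. The authors deposited FPKM values for 239290 transcripts, of which 199173 carry a gene name and 40117 were assembled without one. Among the deposited values 24 lay slightly below 0 and were set to 0, and 1 broken record was rejoined. Read counts were not used here, so depths and fragments are estimates from the steps between FPKM values.

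FPKM of transcripts with one gene name were summed per library. A gene was tested where 5 or more libraries reached 1 FPKM, which left 17875 genes. The tests used limma 3.58.1 (R 4.3.3) on values of log2(FPKM + 1), fitted over all 10 groups and 49 libraries, with Benjamini-Hochberg adjustment over all tested genes and calls at an adjusted p under 0.05. The fit gave 21 comparisons, and its script was tested on simulated data. Groups were taken from the sample titles. All 8 members are named. Of each list the named genes are among the 4 with the largest change past the threshold in a 1 mM comparison, apart from POR, PPARA, ANGPTL4, PDK4, PLIN2 and the other CYP4 genes, which were named in any case. The members and the lists were chosen with earlier results of these data known. Sequences and coordinates came from GENCODE 29 and RefSeq, read with Python 3.11.15. Alternatives were a smaller pseudocount (0.1), testing without the filter, scaling by median ratios, all 50 libraries, fits of 2 groups, single transcripts, assembled transcripts added to genes, runs of sample numbers as a block, and leaving out each library. The sum that adds only contained assembled transcripts was chosen after the data had been seen.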

Additional observations from a re-analysis of the deposited data

Results flagged for a closer look

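In 80 groups of 4 or 5 libraries, 1 for each gene and group, 7 held a library far from the others by Dixon's criterion, which chance alone meets in about 1 in 20 groups. For CYP4V2 these were control replicate 4 with 0.280 FPKM (others 11.3 to 12.9), mesotrione 0.1 uM replicate 2 with 0.800 (others 12.1 to 13.3) and quizalofop-p-ethyl 0.1 uM replicate 3 with 2.16 (others 12.7 to 14.3). Each of these 3 libraries had 4.67 FPKM or more of the assembled transcript over CYP4V2.

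For CYP4F11 they were control replicate 3 with 39.7 FPKM (others 16.9 to 22.4) and quizalofop-p-ethyl 0.1 uM replicate 5 with 41.6 (others 19.5 to 24.8). For CYP4F3 they were isoxaflutole 0.1 uM replicate 3 with 17.0 FPKM (others 19.5 to 19.8) and quizalofop-p-ethyl 1 mM replicate 5 with 6.75 (others 12.8 to 13.2).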

How the results depend on the processing

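The mesotrione, isoxaflutole and quizalofop-p-ethyl calls of CYP4F22 against the control, and the quizalofop-p-ethyl calls of CYP4A11 and CYP4F2, held in every alternative in which these genes were tested. With all 50 libraries the number of CYP4 genes called at 1 mM against the control was 1, 1 and 4 for mesotrione, isoxaflutole and quizalofop-p-ethyl (2, 2 and 7 before). It was then 2 for quizalofop-p-ethyl against isoxaflutole and 2 against mesotrione (4 each before), and 1 for mesotrione and 1 for isoxaflutole at 1 mM against 10 uM (2 each before). In these 4 comparisons 3348, 3376, 29 and 78 of 17905 tested genes were called. With the 2 groups alone it was 1 for mesotrione against the control, 2 for quizalofop-p-ethyl against isoxaflutole, 1 against mesotrione, and 1 each for mesotrione and quizalofop-p-ethyl (5 before) at 1 mM against 10 uM. These 5 fits tested 7, 6, 5, 7 and 5 of the 8 members, and called 116 of 13594, 4726 of 13178, 4866 of 13254, 85 of 13551 and 4429 of 12845 genes. With each transcript tested by itself it was 1 for mesotrione and 1 for isoxaflutole against the control, 2 for quizalofop-p-ethyl against isoxaflutole, and 1 for mesotrione and 1 for isoxaflutole against 10 uM. That fit tested 54806 transcripts, 23 of them from the members, and the share called over all transcripts is not given here. Leaving out 1 library gave 1 to 3 calls for mesotrione against the control, 1 without mesotrione 1 mM replicate 1 and without control replicate 4, and 3 without control replicate 5. Over all genes those 3 fits called 177, 160 and 165, against 228 in the main fit. The cause of the moves in the CYP4 counts was not tested. Over all genes, all 50 libraries gave 28, 79 and 3932 calls, against 228, 640 and 6938.

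Some values that passed no test changed sign. With contained assembled transcripts added, CYP4F12 had -0.0736 with mesotrione, CYP4F3 0.0252 and CYP4V2 -0.0552 with isoxaflutole. With a pseudocount of 0.1 the CYP4A11 difference between isoxaflutole and mesotrione was 0.0634. Leaving out 1 library moved CYP4F12 between -0.0882 and 0.0999 and CYP4F2 between -0.203 and 0.0793 with mesotrione, CYP4F3 between -0.116 and 0.0858 and CYP4V2 between -0.108 and 0.752 with isoxaflutole, and CYP4A11 between -0.257 and 0.200 in isoxaflutole against mesotrione. Of 718 settings of single genes 646 kept direction and call, 48 lost the call, 5 gained it and 19 changed sign.

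The labels give no replicate number shared between groups, but the sample numbers form 5 runs with 1 library of every group in each. After the group means were removed, 30 of 216 pairs of libraries from the same run and different groups correlated over 0.1 (median r 0.0316, highest 0.187). Among pairs from different runs 37 of 864 did (median r -0.00744, highest 0.218). Libraries of a run thus passed 0.1 more often, though these correlations over all tested genes were small. For CYP4A11 and CYP4A22 the lowest library of most groups came from the same run, that of control replicate 5. The main fit did not use the runs, and the labels do not say what a run stands for. With the runs as a block, 358, 828 and 7141 genes were called, and CYP4A22 passed the test in 6 more comparisons: mesotrione and isoxaflutole against the control and against 10 uM, and quizalofop-p-ethyl against each other agent. CYP4F12 passed it for quizalofop-p-ethyl against isoxaflutole. At low FPKM, depth limits CYP4A11, CYP4F2 and CYP4F22 with quizalofop-p-ethyl, where the estimated fragments of the leading transcript were 0 in some libraries, and CYP4A22, where they were 1 to 4.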

Other observations

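The neighbours of the 8 genes within 100 kb gave 14 tested genes, members included. PGLYRP2, a secreted peptidoglycan hydrolase of liver, lies 9537 bases from CYP4F22 and fell with mesotrione by 1.04 (limma adjusted p = 0.00624), with isoxaflutole by 1.65 (limma adjusted p = 1.93e-06) and with quizalofop-p-ethyl by 2.95 (limma adjusted p = 7.12e-15) at 1 mM. PDZK1IP1, 33852 bases from CYP4A22, fell with quizalofop-p-ethyl by 3.52, while its log2 fold changes with mesotrione (-0.18) and isoxaflutole (-0.02) did not pass the test. AC005336.1, 543 bases from CYP4F11, rose with quizalofop-p-ethyl by 0.57 (limma adjusted p = 0.000221). Around CYP4V2, KLKB1 fell by 2.63, the coagulation factor gene F11 by 1.51 and FAM149A by 1.03 with quizalofop-p-ethyl. The wide spread of KLKB1 was also seen outside that group, for example 0.832 FPKM in control replicate 1 and 14.5 in control replicate 2.

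For each member the 3 genes with the most similar 10 group means were read from 13615 genes by Pearson's r, as a description over 10 groups that share their controls and, at 1 mM, the same few libraries. CYP4A11 was most like CYP4F22 (0.996), TFR2 (0.994) and COL3A1 (0.993), and CYP4F22 most like CYP4A11, RPTN (0.994) and CP (0.994). CYP4F2 was most like SERPING1 (0.996), TF (0.995) and ORM1 (0.995), secreted plasma proteins of the liver. CYP4A22 was led by GOT2 (0.986), CYP4F3 by RBBP9 (0.968), CYP4F11 by RPP40 (0.977), CYP4F12 by PRPF4 (0.975) and CYP4V2 by OPA3 (0.956). Among the members, CYP4A11 and CYP4A22 had an r of 0.964, CYP4F11 and CYP4F12 of 0.880, and CYP4F11 and CYP4F22 of -0.907.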
